A study of Drosophila melanogaster with 4 samples.

Results

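Neuropeptides and peptide hormones were described in early pupae of Drosophila melanogaster in which the dopamine receptor gene Dop1R2 was targeted by RNA interference (RNAi). The set holds 32 genes chosen by symbol, from Eh to Ms, and 26 of them carry a probe set whose annotation names that gene alone. No probe set with the single name of Pburs, Dsk, AstA, Tk, Hug or SIFa was found, and these 6 genes were not analysed here. The table holds 13966 probe sets without the array maker's controls, and 12442 of them carry 1 gene name, for 10843 genes.

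Neuropeptides are cut from larger precursor proteins by proprotein convertases and carboxypeptidases, often capped by C-terminal amidation, and stored in dense core vesicles until release. Most act through G protein-coupled receptors, either near the releasing neuron or as hormones carried in the haemolymph. In insects they time the shedding of the old cuticle at each moult, drive ecdysteroid synthesis, set water balance and mobilise stored fat and sugar. Their transcripts come from small numbers of neurons and endocrine cells, which are diluted in RNA from a whole animal.

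The Dop1R2 RNAi pupae (UAS-dsDop1R2/+;Act5C-Gal4/+) carried a hairpin against Dop1R2 and the Act5C-Gal4 driver, which is active in almost all tissues. Control pupae (w1118;Act5C-Gal4/+) carried the driver without the hairpin, so that both groups share the driver. Legends of the study give its controls as siblings with the hairpin and a TM6B balancer, and which description holds for these arrays was not settled. All crosses were kept at 29 °C, and each of the 4 arrays, 2 per group, received whole-body RNA from a pool of 10 to 20 pale pupae. The animals' sex and exact hour of development and the hairpin line used for the arrays are not given in the sources used here. The labels call the replicates biological but do not say whether they came from separate crosses, so that the p-values measure only the spread between these arrays.

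Signals are arbitrary units of one probe set. Between genes they were used for percentiles and for sums over marker lists, and not as relative amounts of RNA. The median signal lay between 43.42 and 45.0 on the 4 arrays, the 20th percentile between 10.1 and 10.7 and the 40th between 29.4 and 31.0. The limma test took in the 8749 probe sets that reached that 40th percentile on at least 2 arrays, and the number of arrays limits the precision. At an adjusted p under 0.05, it called 121 of them (1.38%) higher and 9 (0.103%) lower in the knockdown. Dop1R2 itself has no probe set that carries its name alone, so that the knockdown was not checked on these arrays. The ratio of 3' to 5' signal of the actin control probes was 2.07 on replicate 1 and 1.61 on replicate 2 of both groups. That of Gapdh was 3.88 and 3.9 in Dop1R2 RNAi and 4.61 and 3.97 in controls. That of eIF-4A was 3.98 and 2.82 in Dop1R2 RNAi and 4.59 and 4.24 in controls. The ratios of Gapdh and eIF-4A were thus higher on both control arrays, and their part in the group differences was not tested.

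Among the peptide genes, the neuropeptide-like precursors Nplp2, Nplp3 and Nplp4 had the lowest p-values, and each was lower on both Dop1R2 RNAi arrays than on both controls. Nplp2 stood 2.62-fold, Nplp3 1.87-fold and Nplp4 1.61-fold lower. None of the 14 peptide genes tested passed limma at an adjusted p under 0.05, where 0.103% of all probe sets were called lower and 1.38% higher. At an unadjusted p under 0.05, 3 were lower (21.4%, against 5.51% of all tested probe sets) and 0 were higher (against 7.53%). The methods' t-test also called 0 after adjustment, and at an unadjusted p it called 2 lower (against 3.69% of all tested probe sets) and 0 higher (against 5.34%). The hormones of the ecdysis sequence that could be tested, ETH, Eh, Burs and Lk, differed by no more than 0.53 on the log2 scale, with intervals that include 0.

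Detection divided the 26 genes. By mean percentile over the 4 arrays, 7 lay under the 20th percentile of their array, 5 between the 20th and the 40th, 10 between the 40th and the 60th, and 4 above the 60th. The 4 brightest were Akh, Nplp2, Nplp3 and Nplp4, and only these were clear of the lower 60% of probe sets by that mean. CCAP, Mip, Crz, NPF and amn were under the 20th percentile on all 4 arrays, and 8 genes reached the 40th percentile on all 4. The filter kept 14 of 26 genes (53.8%, against 62.6% of all probe sets), each through at least 1 array of each group. The 12 genes that it left out were not tested in this fit, and no fold change is given for them. Eh and Dh31 lay just inside the filter, each reaching it on replicate 1 of both groups alone, and sNPF lay just outside it. In bulk RNA, fewer cells of a type and less RNA per cell cannot be told apart.

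**Figure D1:**
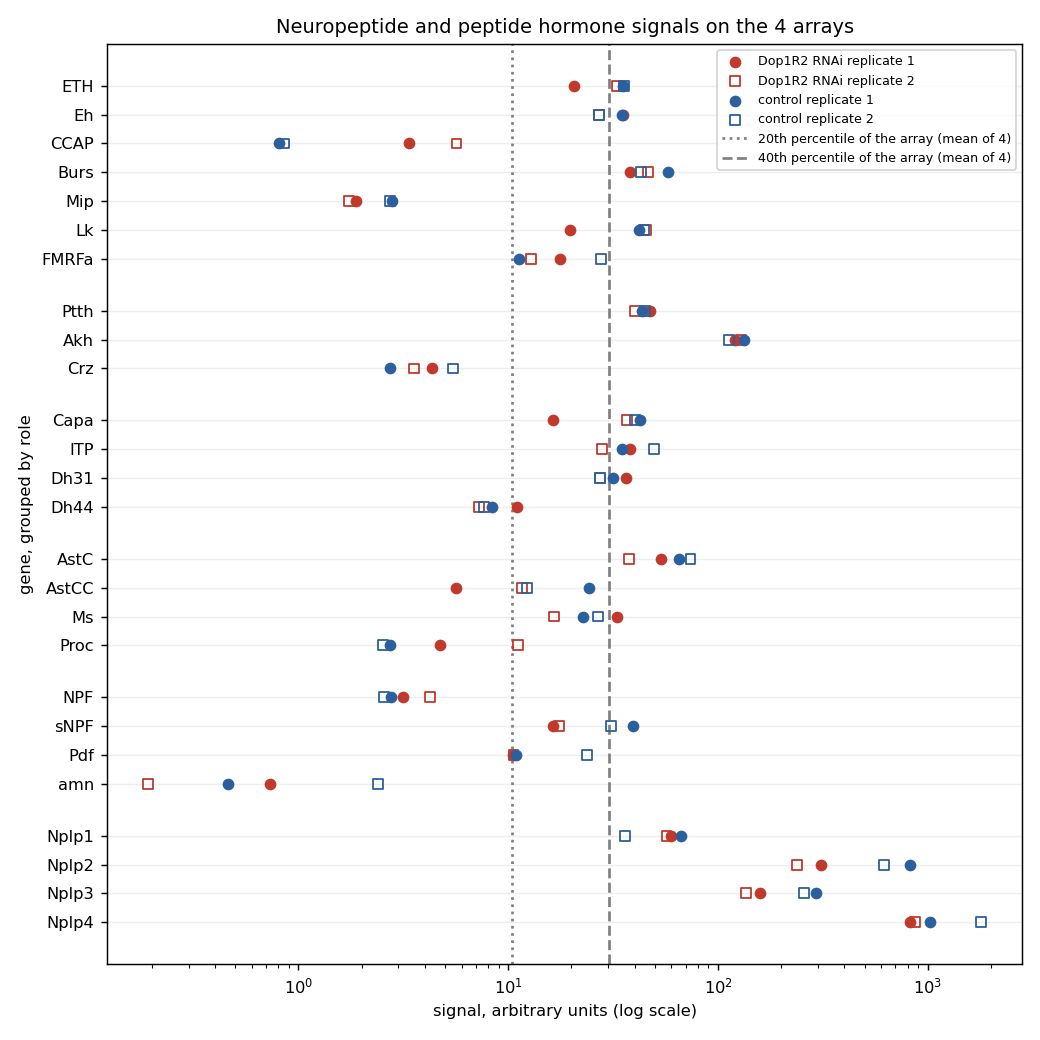
Signal (arbitrary units, log axis) of the 26 peptide genes with a probe set on each of the 4 arrays, grouped by role, with red for Dop1R2 RNAi, blue for control, filled circles for replicate 1 and open squares for replicate 2. Vertical lines mark the 20th and 40th percentiles, averaged over the arrays. The red points of Nplp2, Nplp3 and Nplp4 lie left of their blue points, as do those of ETH, Capa, AstC, Mip, AstCC, sNPF and Pdf. Those of CCAP, Proc and NPF lie right of the blue points, and the groups of the other genes overlap.

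Ecdysis, the shedding of the old cuticle, is started by ecdysis triggering hormone (ETH), which the Inka cells of the tracheae release. ETH had signals of 20.5 and 32.9 on Dop1R2 RNAi arrays 1 and 2 and of 35.2 and 35.5 on control arrays 1 and 2. Both Dop1R2 RNAi arrays were below the controls, replicate 2 by little, and the log2 fold change was -0.45 ± 0.41 (SE, n = 2 per group, limma adjusted p = 0.677). Without Dop1R2 RNAi replicate 1 it was -0.10. Eclosion hormone (Eh), a brain hormone that excites the Inka cells in a positive feedback with ETH, had 35.2 and 27.0 in Dop1R2 RNAi and 34.7 and 27.0 in controls. The same-numbered arrays of the groups had nearly the same Eh signal, and the log2 fold change was 0.01 with a 95% interval from -0.92 to 0.93 (limma adjusted p = 0.997).

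Burs encodes one subunit of bursicon, the hormone that tans the new cuticle and expands the wings. Its signals were 38.2 and 46.3 in Dop1R2 RNAi and 57.8 and 42.8 in controls, so that the groups overlapped, with a log2 fold change of -0.24 ± 0.30 (limma adjusted p = 0.772). Pburs, the other subunit, was not analysed here. Leucokinin (Lk), a diuretic peptide whose neurons are also active before ecdysis, had 19.7 and 45.5 in Dop1R2 RNAi and 42.2 and 44.4 in controls. Only Dop1R2 RNAi replicate 1 was low: the log2 fold change was -0.53 ± 0.46 (limma adjusted p = 0.648), and without that array it was 0.07. Crustacean cardioactive peptide (CCAP), which switches on the ecdysis motor programme, had 3.38 and 5.67 in Dop1R2 RNAi and 0.81 and 0.854 in controls. The Dop1R2 RNAi arrays were the higher ones for CCAP, but all 4 values are under the 20th percentile. Myoinhibitory peptide (Mip), released with CCAP, was as dim, with 1.88 and 1.74 in Dop1R2 RNAi and 2.79 and 2.74 in controls. FMRFa, the precursor of FMRFamide-related peptides that act on muscle, had 17.6 and 12.8 against 11.2 and 27.6, and its groups overlapped below the filter.

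Prothoracicotropic hormone (Ptth), the brain signal that makes the prothoracic gland produce ecdysone, was measured on every array above the filter. Its signals were 47.2 and 40.4 in Dop1R2 RNAi and 43.3 and 44.7 in controls. The controls lay between the Dop1R2 RNAi values, and the log2 fold change of -0.01 had a 95% interval from -0.68 to 0.67 (limma adjusted p = 0.995). Adipokinetic hormone (Akh), made in the corpora cardiaca to release fat and sugar, had 121.1 and 129.1 in Dop1R2 RNAi and 132.4 and 113.3 in controls. Here the Dop1R2 RNAi values lay between the controls, and the interval from -0.51 to 0.57 around a log2 fold change of 0.03 was the narrowest of the peptide genes other than Nplp2, Nplp3 and Nplp4 (limma adjusted p = 0.971). Corazonin (Crz), a stress and metabolic peptide, was under the 20th percentile throughout, with signals from 2.74 to 5.46 and overlapping groups.

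Of the peptides of water and ion balance, Capa, ITP and Dh31 were tested and none passed. Capa, which encodes peptides that act on the Malpighian tubules, had 16.3 and 36.8 in Dop1R2 RNAi and 42.3 and 40.3 in controls. As with Lk, replicate 1 of Dop1R2 RNAi was the low array: the log2 fold change was -0.75 ± 0.47 with it and -0.16 without it (limma adjusted p = 0.535 and 0.934). ETH, Lk and Capa thus had the same low array, and how far the RNA of that array sets their values was not tested. Ion transport peptide (ITP), an antidiuretic hormone, had 38.1 and 27.9 against 34.7 and 49.4, with a log2 fold change of -0.34 ± 0.36 and overlapping groups (limma adjusted p = 0.717). Diuretic hormone 31 (Dh31) had 36.5 and 27.3 against 31.7 and 27.4, with overlapping groups and a log2 fold change of 0.10 ± 0.39 (limma adjusted p = 0.938). Diuretic hormone 44 (Dh44) stayed between 7.25 and 11.0 and was not tested.

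Allatostatins are named for inhibiting juvenile hormone synthesis in other insects, and several also quieten gut muscle. AstC had 53.3 and 37.5 in Dop1R2 RNAi and 65.1 and 73.9 in controls. Both Dop1R2 RNAi arrays were below both controls, by -0.63 ± 0.29 on the log2 scale, with a 95% interval from -1.31 to 0.04 (limma adjusted p = 0.404). AstCC, the gene that neighbours AstC and encodes a related peptide, had 5.67 and 11.6 against 24.3 and 12.3, all below the filter, with the same order of the groups. Myosuppressin (Ms), which slows muscle of the gut and heart, had 32.9 and 16.6 against 22.8 and 26.9, and its groups overlapped. Proctolin (Proc), which stimulates muscle contraction, had 4.73 and 11.1 against 2.73 and 2.54.

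Of the brain peptides that modulate feeding, rhythm and memory, none passed the filter. Short neuropeptide F (sNPF), which promotes feeding, had 16.3 and 17.5 in Dop1R2 RNAi and 39.3 and 31.0 in controls. Its groups did not overlap, but control replicate 2 fell just short of that array's 40th percentile. Neuropeptide F (NPF), also tied to feeding, had 3.17 and 4.24 against 2.76 and 2.57. Pdf, the output peptide of the clock neurons, had 10.6 and 10.6 against 10.9 and 23.8, and amn, a gene named for its memory mutant, ran from 0.193 to 2.40. The groups of NPF did not overlap, but all its values were under the 20th percentile, and those of amn overlapped.

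The neuropeptide-like precursors carry their name because peptides cut from them were found by mass spectrometry of nervous tissue. Of these 4 genes, Nplp2, Nplp3 and Nplp4 lay above the 60th percentile of the arrays. Nplp2, also described as a haemolymph apolipoprotein, had 310.1 and 238.0 in Dop1R2 RNAi and 821.0 and 615.4 in controls. The groups were far apart relative to their spread, with means of 274 ± 51.0 and 718 ± 145 (SD, n = 2 each). The log2 fold change was -1.39 ± 0.25, with a 95% interval from -1.99 to -0.79 (limma adjusted p = 0.0602). The limma adjusted p of Nplp2 was under 0.05 with a filter at the 60th percentile (0.0455). It was also under 0.05 with the replicate number as a block (0.0347), though the labels do not pair the arrays. The other alternatives with all 4 arrays kept it above 0.05. Without Dop1R2 RNAi replicate 1 or 2 the log2 fold change was -1.58 or -1.2, and without control replicate 1 or 2 it was -1.18 or -1.6. These fits leave 1 array in a group, and their p-values are not given.

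Nplp3 had 158.6 and 135.7 in Dop1R2 RNAi and 293.3 and 257.3 in controls. The arrays of a group lay close together and the groups were apart, with means of 147 ± 16.1 and 275 ± 25.5 (SD, n = 2 each). Its log2 fold change was -0.90 ± 0.23, with a 95% interval from -1.45 to -0.36 (limma adjusted p = 0.175), and between -1.02 and -0.78 over the alternatives. Nplp4 had 820.1 and 865.3 in Dop1R2 RNAi and 1029 and 1788 in controls. The Dop1R2 RNAi arrays were alike, whereas control replicate 2 was well above control replicate 1. The log2 fold change of Nplp4 was -0.69 ± 0.28, with a 95% interval from -1.36 to -0.02 (limma adjusted p = 0.371). It was -0.29 without control replicate 2 and -1.09 without control replicate 1, so that the size rests on which control is used. Nplp1, whose peptides are typical of neurosecretory cells, had 59.9 and 56.8 against 66.8 and 36.2. It was the only one of the 4 with overlapping groups, with a log2 fold change of 0.25 ± 0.35 (limma adjusted p = 0.798).

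**Figure D2:**
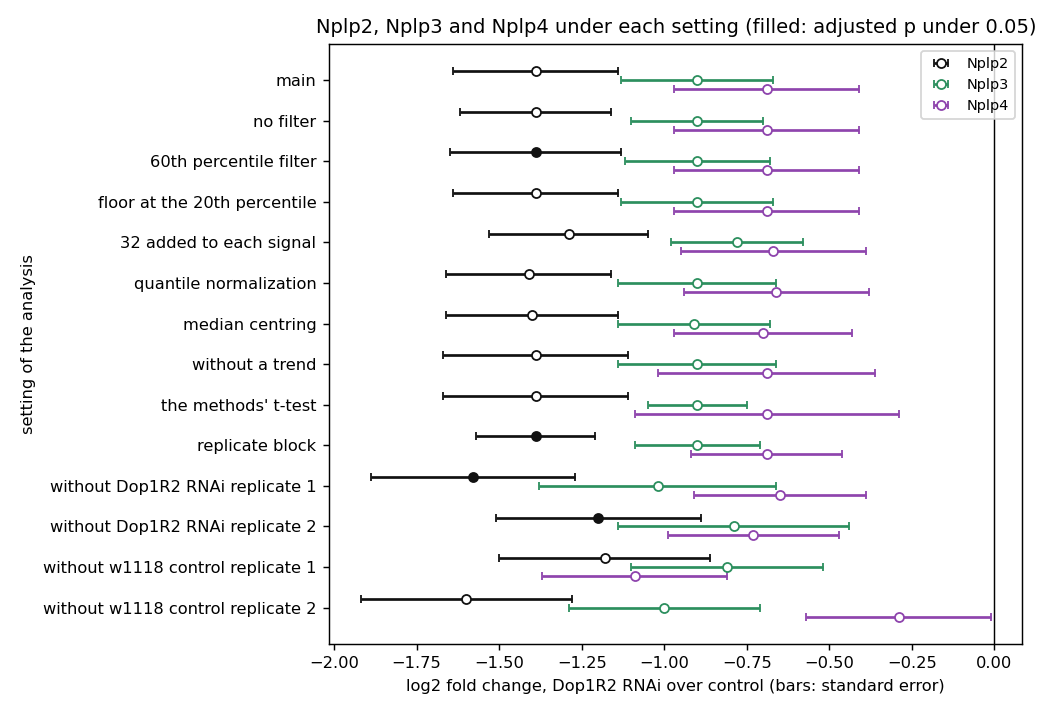
Log2 fold change (Dop1R2 RNAi over control) of Nplp2, Nplp3 and Nplp4 in the fit reported and under each alternative, with bars for the standard error and filled points where the adjusted p was under 0.05. All values are below 0, from -1.60 to -1.18 for Nplp2, from -1.02 to -0.78 for Nplp3 and from -1.09 to -0.29 for Nplp4. Only Nplp2 has filled points, some of them from fits that leave 1 array in a group.

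Over the 14 tested peptide genes, 10 log2 fold changes were negative (71.4%, against 53.9% of all tested probe sets) and 4 were positive. Their median was -0.40, against -0.04 over all tested probe sets, and -0.24 for the 11 genes other than Nplp2, Nplp3 and Nplp4. Both Dop1R2 RNAi arrays were below both controls in 6 of the 14 (42.9%, against 24.0% of all), namely ETH, Capa, AstC, Nplp2, Nplp3 and Nplp4. Both were above both controls in 0 of them (against 21.1%). The lowest array was a Dop1R2 RNAi array for 12 of 14 genes, replicate 1 for 5 and replicate 2 for 7, where these were the lowest for 23.7% and 28.8% of all tested probe sets. Eh and Dh31, counted there, were near ties between replicate 2 of Dop1R2 RNAi (27.0 and 27.3) and of control (27.0 and 27.4). The 11 other genes ran from -0.75 to 0.25, and the 95% intervals reached between 0.54 and 1.12 to either side, so that log2 differences smaller than these were not resolved with 2 arrays per group. The 12 genes below the filter showed no common direction: 4 were lower on both Dop1R2 RNAi arrays, 3 were higher and 5 overlapped, where 20.2% of all probe sets below the filter were lower and 15.8% higher in that way.

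**Figure D3:**
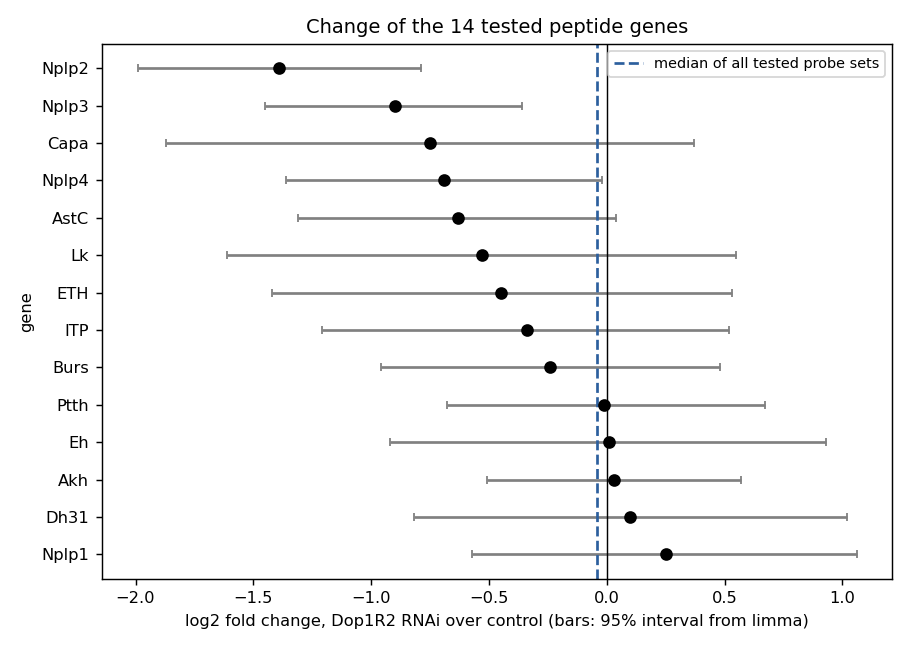
Log2 fold change (Dop1R2 RNAi over control) of the 14 tested peptide genes with 95% intervals from limma, ordered from lowest to highest. The intervals of Nplp2, Nplp3 and Nplp4 lie below 0, those of the other 11 genes include 0, and the dashed line marks the median of all tested probe sets at -0.04.

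**Figure D4:**
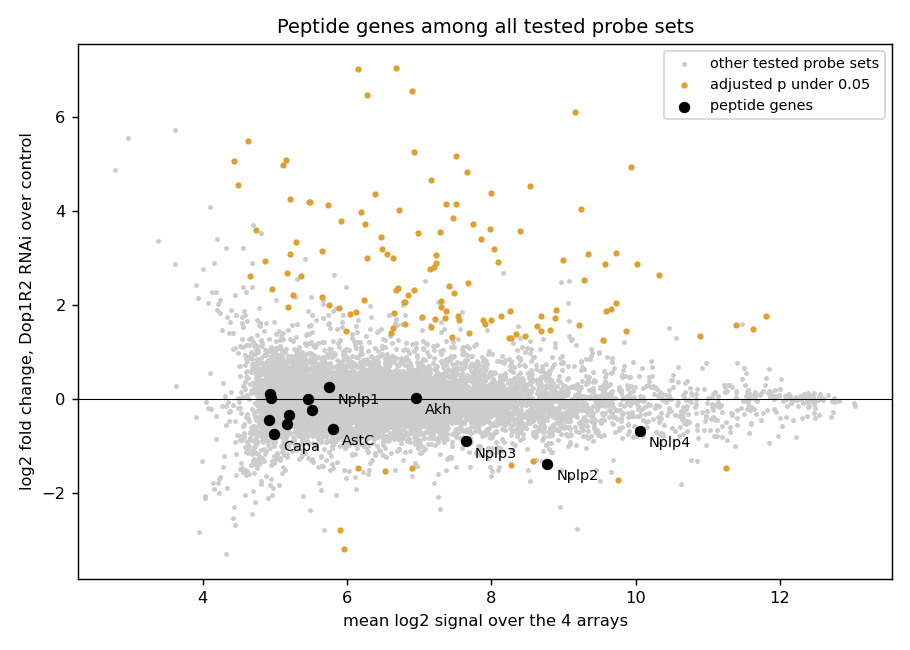
Mean log2 signal over the 4 arrays (horizontal axis) against log2 fold change, Dop1R2 RNAi over control (vertical axis), of the 8749 tested probe sets, with those at an adjusted p under 0.05 in orange and peptide genes in black. The points of Nplp2, Nplp3 and Nplp4 lie below 0 within the cloud, none of them in orange, and the other peptide genes sit towards its dim end, with Akh between.

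Enzymes that turn precursors into active peptides were tested for 8 of 10 genes listed, by the brightest probe set of each. Of these probe sets 0 passed limma in either direction (also 0 at an unadjusted p), with a median log2 fold change of 0.07. Phm, the hydroxylase that begins amidation, had signals of 231.6 and 247.3 in Dop1R2 RNAi and 179.0 and 180.8 in controls, a log2 fold change of 0.41 ± 0.22 (limma adjusted p = 0.464). Both groups of Phm were tight and did not overlap. The chaperone 7B2 of the convertase amon had a log2 fold change of -0.58 on its brighter probe set and of 0.57 on its other one, so that its direction was not settled. The carboxypeptidase gene svr had 0.25 on the brighter probe set (limma adjusted p = 0.837) and 1.79 ± 0.36 on the other (adjusted p = 0.0867). That other probe set had an unadjusted limma p of 0.00178 and is outside the count above. Of 8 genes of dense core vesicles and peptidergic cells, 3 were tested and 0 passed, also at an unadjusted p. They include dimm, the transcription factor of peptidergic cell identity, at 0.14 ± 0.40 (limma adjusted p = 0.915).

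Receptors for neuropeptides and peptide hormones were tested for 12 of 42 genes listed, and limma called 0 at an adjusted p. At an unadjusted p it called 1 of the 12, higher, where 7.53% of all tested probe sets were higher. Their median log2 fold change was 0.16, with a range from -0.91 to 1.22. TkR99D, a tachykinin receptor, was the gene with the unadjusted p under 0.05, with 311.1 and 233.1 in Dop1R2 RNAi and 145.1 and 92.0 in controls. It had non-overlapping groups and a log2 fold change of 1.22 ± 0.30 (limma adjusted p = 0.161). Receptors of the ecdysis peptides did not share a direction. CCAP-R had 36.4 and 14.9 in Dop1R2 RNAi and 46.4 and 41.1 in controls (-0.91 ± 0.50 on the log2 scale, limma adjusted p = 0.481), and the bursicon receptor rk had 72.9 and 57.2 in Dop1R2 RNAi and 72.3 and 57.2 in controls (0.01 ± 0.27, adjusted p = 0.997). As for Eh, same-numbered arrays of rk were nearly equal. Dh44-R2 (0.96 ± 0.44, limma adjusted p = 0.415) reached the filter on the Dop1R2 RNAi arrays alone, and sNPF-R (-0.71 ± 0.37, adjusted p = 0.459) on the control arrays alone.

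Of 21 other secreted hormones and binding proteins listed, 5 were tested and 1 passed, higher, where 1.38% of all tested probe sets were called higher. ImpL2, which binds insulin-like peptides in the haemolymph, had 765.5 and 1106 in Dop1R2 RNAi and 221.1 and 279.3 in controls. Both Dop1R2 RNAi arrays were far above the controls, by 1.89 ± 0.26 on the log2 scale (limma adjusted p = 0.0220). The call was lost without a trend (adjusted p = 0.0568), in the methods' t-test (0.512), without control replicate 1 (0.253) and without control replicate 2 (0.127). The peptide hormone genes Ilp8, CCHa2 and natalisin had log2 fold changes of 0.09, 0.19 and 0.08, and daw, an activin-like ligand, 0.54, none of them past the test.

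Marker genes of the cell types in a pupa were read beside these values. Neuron markers summed to between 435.0 and 516.8 in Dop1R2 RNAi and between 493.8 and 548.5 in controls over 12 genes, 3 of them under the 20th percentile on all arrays. None of the 5 tested passed limma (0 also at an unadjusted p). The brightest, fne and Appl, carried most of the sums. Of the 12, elav, para, Appl and Rdl were lower on both Dop1R2 RNAi arrays, cac was higher on both, and the groups of the others overlapped. Of these 5, elav, para and cac lay below the filter. Fat body markers, the tissue of haemolymph lipid carriers, summed to between 20393 and 20948 in Dop1R2 RNAi and between 20809 and 21430 in controls over 6 genes. Lsp2, Fbp1 and Fbp2 carried most of that sum, so that it says little of the lipid carrier genes. Of these, apolpp had a log2 fold change of -0.07 on its brighter probe set (limma adjusted p = 0.889). Apoltp was lower on both Dop1R2 RNAi arrays (-0.54 ± 0.26, limma adjusted p = 0.433). Haemocyte markers summed to between 322.3 and 346.2 against between 478.2 and 534.9 over 6 genes, a gap that Pxn, a secreted peroxidase, carried alone (-1.05 ± 0.22, limma adjusted p = 0.0926). Without Pxn the other 5 summed to between 152 and 159 against between 119 and 155, and the other tested haemocyte genes, NimC1 and PPO2, had log2 fold changes of 0.34 and 0.56. Epidermis and cuticle markers summed to between 1568 and 2131 in Dop1R2 RNAi and between 926.6 and 1131 in controls over 6 genes, none under the 20th percentile on all arrays. Of these, the pupal cuticle genes Edg91 (2.07 ± 0.29, limma adjusted p = 0.0226) and Pcp (1.87 ± 0.31, adjusted p = 0.0407) rose. Both calls were lost with no filter (0.0532 and 0.074), without a trend, in the methods' t-test and without either control array. Edg78E (1.98 ± 0.37, limma adjusted p = 0.067) and Edg84A (1.56 ± 0.47, adjusted p = 0.241) were higher on both Dop1R2 RNAi arrays but did not pass. Ccp84Ag had overlapping groups (1.87 ± 0.78, adjusted p = 0.376), and Acp1 was level (0.01 ± 0.23, adjusted p = 0.99). Markers of glia (3 tested), gut (2), muscle (4) and larval salivary gland (1) gave 0 calls in limma. At an unadjusted p 1 gut gene was lower, where 5.51% of all tested probe sets were lower. Edg91, Pcp, Edg78E, Edg84A, NimC1 and PPO2 (higher) and Pxn (lower) thus had non-overlapping groups, as had Nplp2, Nplp3 and Nplp4. So had markers of other lists in both directions, such as Gs2 and Fbp1 (higher) and Appl and Apoltp (lower). Over all tested probe sets, 21.1% were higher and 24.0% lower in that way. Of those marker genes only Edg91 and Pcp passed the test, and their part in the values of the peptide genes was not tested.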

How the data were processed

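Total RNA from pools of whole pale pupae was hybridised to 4 Affymetrix Drosophila genome arrays, 2 per group. The authors summarized each array with MAS5 (named in the submitters' processing notes, with no version in the sources used here) and ran a t-test per gene in Genespring. Each deposited value is the linear intensity of a probe set, and the 2% trimmed mean is 100.02 on every array. The table holds 14010 probe sets, and 44 array maker controls were left out. Detection calls were not used here. The study kept only genes called present or marginal in both replicates and took an unadjusted p under 0.05. The methods' t-test of this report instead ran on the log2 signals kept by the percentile filter, so that its counts are not those of the study.

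Signals were log2-transformed with nothing added. Those that reached the array's 40th percentile on 2 or more arrays (8749 of 13966) entered limma 3.58.1 in R 4.3.3 (lmFit, eBayes with a trend; residual degrees of freedom were 2, prior 4.95), with Benjamini-Hochberg adjustment over all of them. ± after a fold change is limma's standard error. The script was tested on simulated data. An exact permutation test of 2 against 2 arrays cannot go below p = 0.333 (two-sided) and was not used. Python 3.11.15 (numpy 2.4.6, pandas 2.3.3, matplotlib 3.10.9) made the summaries.

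Groups and replicate numbers follow the sample labels. Genes were matched by the symbol in the probe annotation, where 327 probe sets carry several names and 1197 none. Probe sets with several names or none were not searched for peptide genes. Each peptide gene analysed has 1 probe set that names it alone, and for other genes the brightest was used. Names and gene neighbours were taken from Release 6 plus ISO1 MT. Precursor sequences were not used here.

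The peptide genes, the other lists and the alternatives were chosen with earlier results of these data known. By rule, array values are printed for tested peptide genes with an unadjusted p under 0.05 or a log2 fold change of at least 1 in size, and for ecdysis peptides, and in other lists for genes past the threshold and up to 3 with the largest change. The values of the other genes printed were chosen after they were seen. The filter was dropped or moved to the 60th percentile, signals were floored at the 20th percentile or raised by 32, and further alternatives were quantile normalization, median centring, no trend, the methods' t-test, the replicate number as a block and leaving out each array.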

Additional observations from a re-analysis of the deposited data

How the results depend on the processing

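With 2 arrays per group, counts of calls moved with the setting. Of all probe sets, 121 higher and 9 lower became 75 and 3 with no filter and 0 and 0 in the methods' t-test (467 and 323 at an unadjusted p), and leaving out 1 array gave from 27 to 357 higher and from 0 to 295 lower. Of the peptide genes, limma called 0 lower, and 1, Nplp2, with a filter at the 60th percentile and with the replicate block (adjusted p = 0.0347). With 1 array left out, a group holds 1 array and its spread is taken from the others. Nplp2 then had log2 fold changes from -1.6 to -1.18. At an unadjusted p, 3 were lower, from 2 to 5 with 1 array left out (5 without Dop1R2 RNAi replicate 2, where Capa and Lk join), and with no filter 3 were lower, with sNPF in place of Nplp4, and 1 was higher, CCAP. Nplp4 was also not among them without a trend, in the methods' t-test and without control replicate 2. The replicate number pairs no arrays in the labels, and deviations of same-numbered arrays correlated at 0.151. The block gave 131 probe sets higher and 10 lower, and it also took the call of Pcp (adjusted p = 0.0508).

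Directions turned only where an array was left out, and only in genes with a change near 0 or with 1 low array. Without Dop1R2 RNAi replicate 1, Eh was -0.18, Lk 0.07 and Dh31 -0.11 on the log2 scale. Without Dop1R2 RNAi replicate 2, Ptth was 0.10 and Akh -0.02. Without control replicate 2, Eh was -0.17, Ptth 0.01, Akh -0.08 and Nplp1 -0.20. Over the 4 fits with an array left out, Eh ran from -0.18 to 0.20, Lk from -1.13 to 0.07, Ptth from -0.12 to 0.10, Akh from -0.08 to 0.14, Dh31 from -0.11 to 0.31 and Nplp1 from -0.20 to 0.69. Of 173 values of the 14 genes under 13 alternatives, 160 kept their direction and their side of the threshold, these 9 reversed and 4 of Nplp2 passed it. Some of those 4 came from fits that leave 1 array in a group. Leaving out an array assumes that the lone array of that group varies like the others. Beside the losses with no filter, Edg91 lost its call without a trend (adjusted p = 0.0517) and so did Pcp (0.0888). Both also lost it in the methods' t-test (0.52 and 0.537) and without control replicate 1 (0.195 and 0.291) or control replicate 2 (0.141 and 0.186). No peptide gene has another probe set that names it alone, so that no value from another probe set is given.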

Other observations

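The genes beside Nplp4 and Nplp3 in the annotation were looked up after the values of these had been seen. CG15353, the gene next to Nplp4, has 2 probe sets. One had 206.9 and 238.3 in Dop1R2 RNAi and 690.5 and 1754 in controls, a log2 fold change of -2.31 ± 0.42 (limma adjusted p = 0.0569). The other had 295.1 and 313.4 against 713.5 and 1323, a log2 fold change of -1.68 ± 0.31 (limma adjusted p = 0.0642). As for Nplp4, control replicate 2 was the highest array on both. The probe sets of CG15353 and Nplp4 carry consecutive numbers, and whether they share probe sequence was not tested. CG13062, next to Nplp3, had 294.0 and 127.4 against 454.4 and 377.6 (-1.10 ± 0.39, limma adjusted p = 0.317), whereas CG13041 on the other side had 582.9 and 461.8 against 535.1 and 438.1 (0.10 ± 0.23, adjusted p = 0.891). The other neighbours were below the filter. Next to Nplp4, CG4238 had 17.5 and 8.86 against 10.4 and 9.63, and next to Nplp2, CG17687 had 3.68 and 2.56 against 2.45 and 11.5, both with overlapping groups. CG14111, on the other side of Nplp2, was higher on both Dop1R2 RNAi arrays, with 12.0 and 23.2 against 3.67 and 2.95.

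AstC-R1, a receptor of the C-type allatostatins, differed more between replicate numbers than between groups, with 29.9 and 6.22 in Dop1R2 RNAi and 30.8 and 4.13 in controls. Its log2 fold change of 0.27 had a standard error of 1.41 (limma adjusted p = 0.953).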
